A study of Mus musculus with 12 samples.

Results

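The untreated expression state of mouse oligodendrocyte progenitor cells (OPCs) derived from pluripotent stem cells was described from the 3 vehicle libraries of a series of 12. A gene was counted as expressed when it reached 1 TPM, the length-corrected unit of transcript abundance within a library, in each of the 3 libraries, and 10410 of the 35385 gene symbols did so. Every cell of the series was grown in a medium with the N2max and B27 supplements, noggin, NT3, cAMP and IGF-1, was plated in a medium that permits differentiation, was left to attach for 1 h and was collected 4 h later. The vehicle group received dimethyl sulfoxide for those 4 h, and the other groups received cetylpyridinium chloride, an alkyl(ethylbenzyl)dimethylammonium chloride or methyltrioctylammonium chloride. The cells had therefore left the growth medium by the time of collection, and "before toxicant" means cells without compound, not cells in growth medium. The labels name no stem cell line, genotype or sex, and do not say whether the 3 libraries came from separate cultures or what their numbers stand for. Some differences between them recurred by number in the treated groups and are given with the values by number.

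OPCs are the dividing precursors of oligodendrocytes, the cells that wrap axons of the central nervous system in myelin. Olig1 and Olig2, paired bHLH transcription factors, set up the lineage together with Sox10 and Nkx2-2, while the receptor Pdgfra marks the precursor stage and is lost on differentiation. Exit from the cell cycle is followed by a passing stage with high Gpr17, and then by myelin genes under the regulator Myrf.

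The 5 genes that mark these cells were above the threshold in all 3 libraries. Olig1 (chr16:91269772-91271933, plus strand, GRCm38) was the highest of them at 1016, 1282 and 1284 TPM in libraries 1, 2 and 3, a mean of 1194 ± 154 (SD, n = 3). Olig2 (chr16:91225457-91228677, plus strand), its neighbour and partner, was at 351, 537 and 488 TPM, a mean of 459 ± 96.3 (SD, n = 3), and its range lay below that of Olig1. The other 3 markers lay below Olig2 in each library. Gpr17, a G protein-coupled receptor of committed precursors, was at 62.4, 50.7 and 63.8 TPM, a mean of 59 ± 7.19 (SD, n = 3). Cnp (chr11:100574904-100591729, plus strand), a myelin-associated phosphodiesterase that is switched on early, was at 59.8, 48.1 and 51 TPM, a mean of 53 ± 6.1 (SD, n = 3). Pdgfra (chr5:75152292-75198215, plus strand), the receptor for the growth factor PDGF-AA, was at 29.3, 35.6 and 29.3 TPM, a mean of 31.4 ± 3.62 (SD, n = 3). Gpr17 and Cnp overlapped in level, and Pdgfra lay below both in all 3 libraries. The label of the cells thus matched these markers, and genes of the precursor stage and of the step after it were measured side by side. In bulk RNA, fewer cells of a kind and less RNA per cell cannot be told apart.

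**Figure D1:**
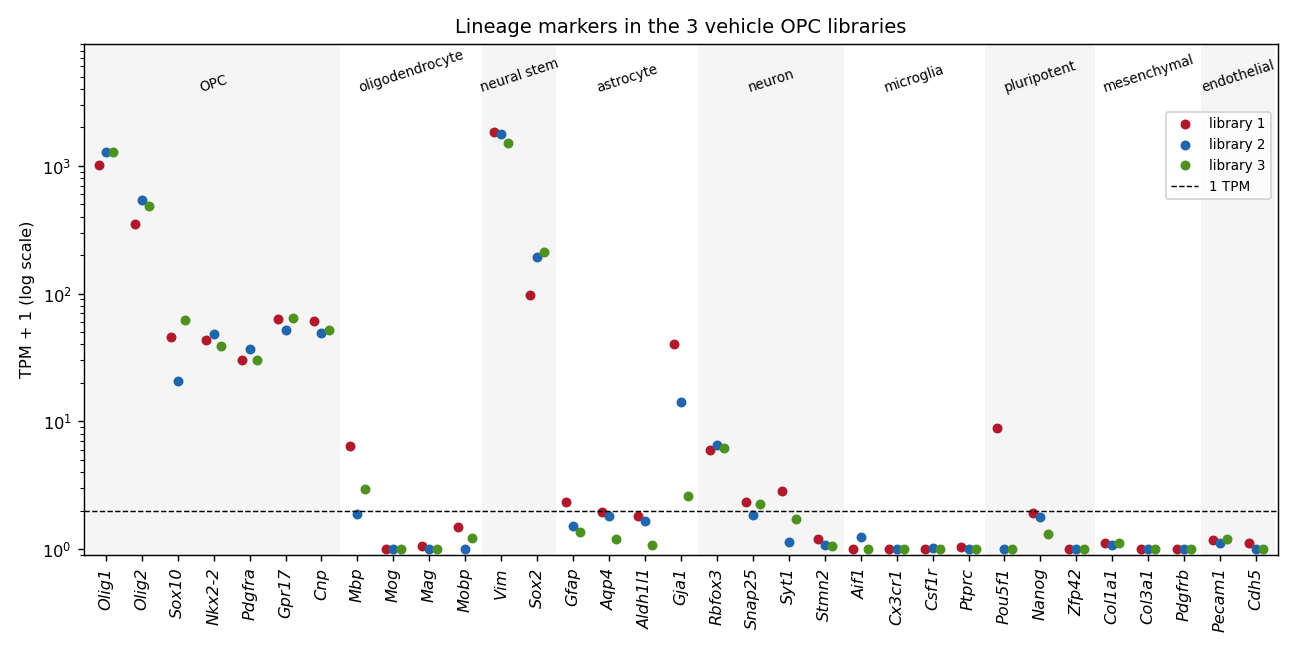
Level (TPM + 1, log scale) of lineage markers in each vehicle library, 1 point per library, with the 1 TPM threshold as a dashed line. The 7 OPC genes sit between 19.6 and 1284 TPM, while the defining markers of microglia, mesenchymal and endothelial cells sit at or near 0.

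Promoter sequences of genes at different points of this state are shown first, because promoter content differed between expressed genes and genes listed at 0. Olig2, Pdgfra and Mog stand for a high precursor factor, a lower precursor receptor and a gene of finished myelin that was listed at 0 in all 3 libraries. The windows are RefSeq sequence of GRCm38.p6, 250 bases before to 50 bases after the start that RefSeq gives the gene, which differs from the GENCODE start printed above for Olig2 and Pdgfra, 5′ to 3′ on the gene's own strand, with each CG dinucleotide in capitals. Olig2 is chr16:91225300-91225599 on the plus strand, Pdgfra is chr5:75152001-75152300 on the plus strand and Mog is chr17:37023349-37023648 on the minus strand.
Olig2: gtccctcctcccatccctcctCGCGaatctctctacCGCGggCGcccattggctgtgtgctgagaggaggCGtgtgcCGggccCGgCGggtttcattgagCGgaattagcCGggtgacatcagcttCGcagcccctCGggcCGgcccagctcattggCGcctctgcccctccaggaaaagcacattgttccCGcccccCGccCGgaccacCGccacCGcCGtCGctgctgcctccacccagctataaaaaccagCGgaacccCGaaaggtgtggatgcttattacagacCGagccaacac
Pdgfra: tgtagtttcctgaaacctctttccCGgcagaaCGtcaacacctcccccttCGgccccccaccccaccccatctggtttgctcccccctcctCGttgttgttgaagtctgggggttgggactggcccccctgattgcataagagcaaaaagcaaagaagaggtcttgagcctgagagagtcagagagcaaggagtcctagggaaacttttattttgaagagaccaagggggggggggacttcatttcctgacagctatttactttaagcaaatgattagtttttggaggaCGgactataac
Mog: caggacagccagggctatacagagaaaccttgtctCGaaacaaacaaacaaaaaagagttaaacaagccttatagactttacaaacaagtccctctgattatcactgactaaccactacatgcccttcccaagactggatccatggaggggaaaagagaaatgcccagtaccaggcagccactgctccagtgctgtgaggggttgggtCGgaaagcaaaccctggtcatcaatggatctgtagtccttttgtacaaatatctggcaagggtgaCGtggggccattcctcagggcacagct
The Olig2 window held 25 CG dinucleotides, the Pdgfra window 5 and the Mog window 3. Relative to the number that the C and G content of each window predicts, these were 0.815, 0.256 and 0.171. The Pdgfra window therefore was closer to that of Mog, listed at 0, than to that of Olig2, although Pdgfra was expressed in all 3 libraries. The Olig2 window also held TATAAA, the letters of a TATA box.

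Of the symbols, 14122 had exactly 1 such window. The median CG content relative to prediction was 0.169 over the 4020 genes listed at 0 in all 3 libraries and 0.411 over the 3706 genes above 0 that missed the threshold. It was 0.766 over the 2264 expressed genes with a mean under 10 TPM, 0.825 over the 3519 with a mean of 10 to 100 TPM, and 0.842 over the 613 with a mean of 100 TPM or more. The largest step thus lay at the threshold, a smaller one between genes listed at 0 and those that missed it, and little among the expressed genes. TATAAA on either strand was found in 27% of windows of genes listed at 0, in 5.96% of windows of all expressed genes and in 9.14% of those at 100 TPM or more. The GC box letters GGGCGG, on either strand, ran the other way, at 13.1% and 69.4% for genes listed at 0 and expressed genes, with 46.4% over all windows. The median C and G content of the windows was 46% for genes listed at 0 and 62% for expressed genes. The shares of TATAAA and GGGCGG were not corrected for that content, and its part in them was not tested. A match of letters is a description and not a bound site.

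**Figure D2:**
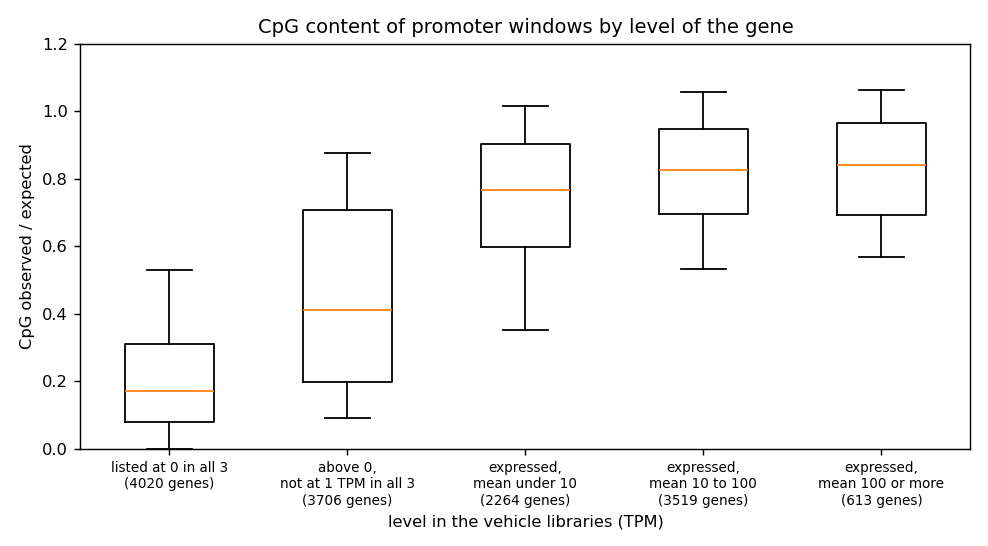
CG dinucleotides in the promoter window relative to the number predicted from its C and G content, by level of the gene in the vehicle libraries. Boxes span the 25th to 75th percentile with the median inside, and whiskers the 10th to 90th; the median was 0.169 for genes listed at 0 and 0.842 for genes at 100 TPM or more.

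Promoters of cell cycle and sterol genes are shown for CCAAT, common in both lists, and for TTTGAA, common in genes of G2 and mitosis. Cdk1, the kinase that drives entry into mitosis, and Ccnb2, a cyclin that binds it, are shown with CCAAT and TTTGAA in capitals on either strand (ATTGG and TTCAAA on the reverse). CCAAT is the CCAAT box, and TTTGAA is the core of the cell cycle homology region known from promoters of mitotic genes. Hmgcs1, which makes the precursor of mevalonate in cholesterol synthesis, is shown with CCAAT in capitals on either strand. Cdk1 is chr10:69352863-69353162 on the minus strand, Ccnb2 is chr9:70421505-70421804 on the minus strand and Hmgcs1 is chr13:119690101-119690400 on the plus strand.
Cdk1: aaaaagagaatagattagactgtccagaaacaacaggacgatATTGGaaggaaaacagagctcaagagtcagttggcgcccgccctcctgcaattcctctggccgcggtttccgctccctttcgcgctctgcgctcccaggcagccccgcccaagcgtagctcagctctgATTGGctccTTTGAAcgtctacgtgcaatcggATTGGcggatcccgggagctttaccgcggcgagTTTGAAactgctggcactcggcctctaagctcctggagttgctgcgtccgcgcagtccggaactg
Ccnb2: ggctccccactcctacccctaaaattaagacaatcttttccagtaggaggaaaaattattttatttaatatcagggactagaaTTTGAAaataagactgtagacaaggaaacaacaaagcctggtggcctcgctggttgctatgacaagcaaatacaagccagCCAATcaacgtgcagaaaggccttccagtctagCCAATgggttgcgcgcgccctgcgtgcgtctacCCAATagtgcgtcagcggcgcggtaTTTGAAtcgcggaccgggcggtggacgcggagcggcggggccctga
Hmgcs1: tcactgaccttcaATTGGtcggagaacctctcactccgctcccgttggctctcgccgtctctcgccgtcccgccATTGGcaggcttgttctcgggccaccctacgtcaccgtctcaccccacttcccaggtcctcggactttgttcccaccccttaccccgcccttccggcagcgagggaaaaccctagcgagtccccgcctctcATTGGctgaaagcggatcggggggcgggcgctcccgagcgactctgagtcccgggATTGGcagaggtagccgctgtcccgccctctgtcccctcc
The Cdk1 and Ccnb2 windows each held 5 marked matches, 3 of CCAAT and 2 of TTTGAA, and the Hmgcs1 window held 4 of CCAAT. Among 25 expressed genes of G2 and mitosis with 1 window, 19 held CCAAT, 17 held TTTGAA and 14 held both. Over all windows the shares were 39.1% for CCAAT, 16.7% for TTTGAA and 6.65% for both. Of 14 expressed cholesterol genes with 1 window, 13 held CCAAT, all 14 held GGGCGG and 0 held TTTGAA. Expressed genes of DNA replication held CCAAT in 14 of 18 windows and TTTGAA in 2. CCAAT was also frequent in other lists, at 6 of 7 windows of expressed neural stem cell markers and 10 of 14 of CDK inhibitors and brakes. These lists held TTTGAA in 2 windows each. Expressed OPC markers held CCAAT in 5 of 14 windows and TATAAA in 4.

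Before the lists, some limits of the levels bear on all of them. The TPM given for the symbols sum to 772637, 795557 and 790849 in libraries 1, 2 and 3, short of the total that TPM are scaled to. Mitochondrially encoded genes took 11.2%, 22.3% and 21.4% of these sums. Genes whose products cells need in matched amounts were not level: the 76 cytosolic ribosomal protein genes, counted without the retrogene Rps27rt, ranged from a mean of 9.97 TPM for Rpl7 to 6519 TPM for Rplp1, with 13 under 50 TPM. Polr2a, the large subunit of RNA polymerase II, was listed at 21.4, 0 and 0 TPM, and the glycolytic kinase gene Pgk1 at 1.17, 0.64 and 0.525 TPM. Actb, the cytoplasmic actin gene, was at 35, 42.3 and 31.6 TPM, while Gapdh was at 2322, 2096 and 2138 TPM. A value of 0 or a low value is therefore given as listed and is not read as absence. Olig1, Olig2 and Gpr17 have 1 annotated transcript and Pdgfra has 9. Among expressed protein-coding genes the median level was 12.3 TPM for those with 1 transcript, 14.8 TPM for those with 2 to 4 and 17.6 TPM for those with 5 or more. Pseudogene copies with a value above 0 were matched to 34 list members, and for 3 of these the copies held more TPM than the gene. The part of transcript number and copies in the other levels was not tested.

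Library 1 stood apart from the others. Across the 10410 expressed genes, Pearson's r of log2(TPM + 1) was 0.94 between libraries 1 and 2, 0.935 between 1 and 3, and 0.972 between 2 and 3; these points share the library's depth and composition. The highest value was over 2 times the lowest in 2328 expressed genes, or 22.4%. Library 1 was at an end of the range in 2000 of these, library 2 in 1300 and library 3 in 1356. The count was 697 when only libraries 2 and 3 were compared, but a range over fewer libraries cannot be wider. mt-Nd3, a subunit of respiratory complex I, was at 0, 12747 and 13260.5 TPM, and Hspa8, the constitutive chaperone, at 686, 13.5 and 16.2 TPM. With its matched pseudogene copy added, mt-Nd3 was at 628, 12918 and 13260.5 TPM. Library 1 held the highest of the 3 values in 61.1% of expressed genes, alongside its lower mitochondrial share. Levels of the members described most closely are therefore given per library, and others as means.

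Counted by class, 553 of the 830 list members were expressed. The background is 29.4% of all symbols and 47.0% of the 21529 protein-coding symbols. Counts of single lists below are to be read against that 47.0%. Transcription factors of the lists reached 63 of 90, receptors 123 of 235, lineage markers 87 of 208, metabolic genes 209 of 240 and proliferation genes 93 of 97. Receptors and lineage markers, at 52.3% and 41.8%, thus lay near the share of all protein-coding symbols, while metabolic and proliferation genes lay far above it. That share itself rose with annotated transcripts, at 20.9% for genes with 1, 36.6% with 2 to 4 and 70.2% with 5 or more. Of the proliferation genes 4 of 97 had 1 transcript, and of the metabolic genes 24 of 240. The part of transcript number in the class shares was not tested. The list members nearest the threshold were Prom1 at 4.63, 1.64 and 1.07 TPM, Ror1 at 2.11, 1.3 and 1.1 TPM and E2f1 at 2.09, 1.18 and 1.1 TPM on the inside. On the outside they were Pfkp at 2.53, 2.29 and 0.994 TPM, Opalin at 2.54, 0.987 and 2.48 TPM and Axl at 0.936, 5.12 and 1.53 TPM.

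**Figure D3:**
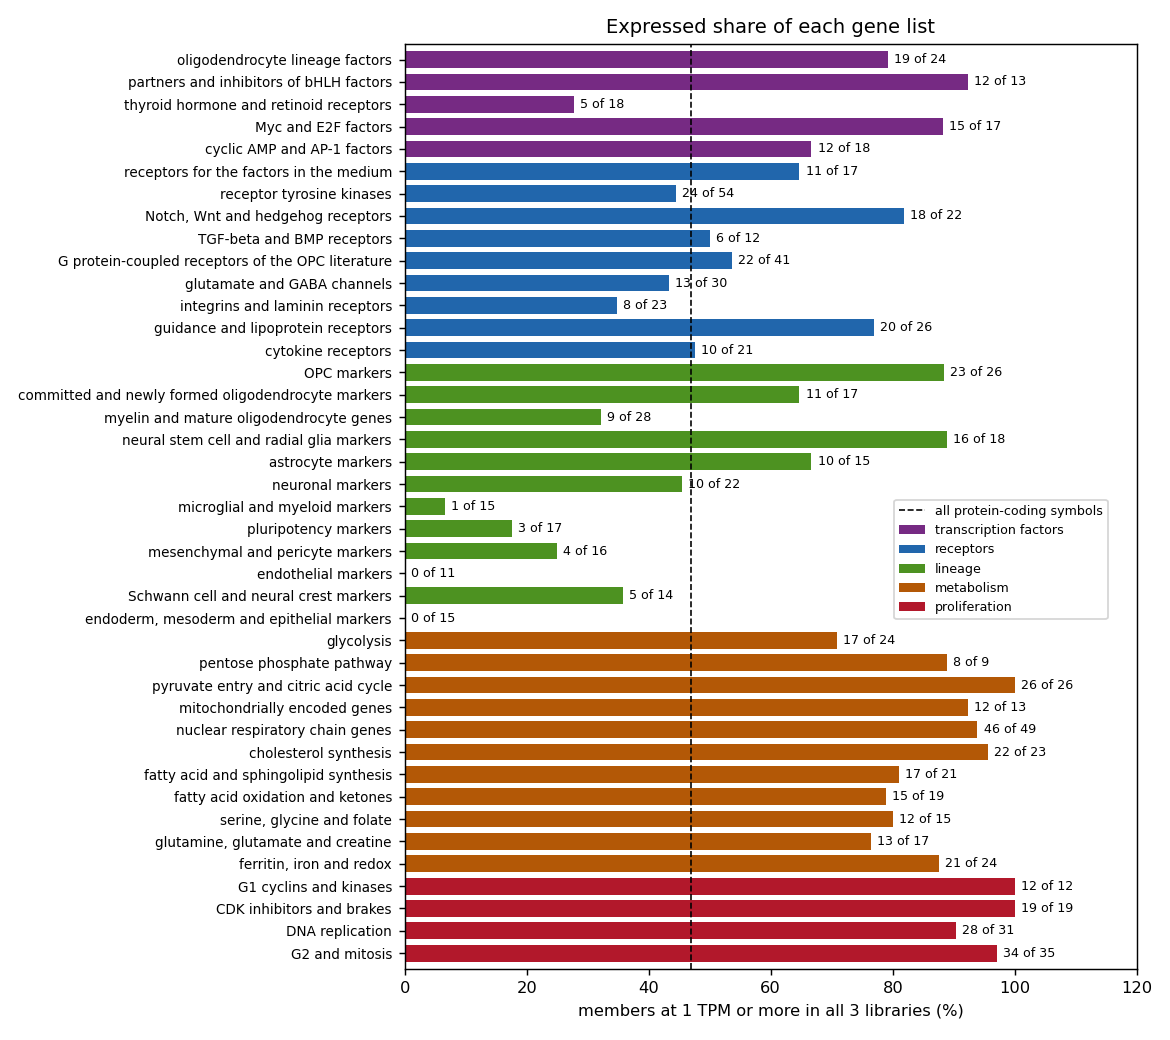
Share of each gene list at 1 TPM or more in all 3 vehicle libraries (%), coloured by class, with the number of expressed members at the bar's end. The dashed line is the 47.0% of all protein-coding symbols; proliferation and metabolism lists lie to its right, and endothelial and endoderm lists have no bar.

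Among transcription factors, 19 of 24 oligodendrocyte lineage factors were expressed. Below Olig1 and Olig2 came Sox8, a SoxE factor that works beside Sox10, at 261, 137 and 229 TPM, with a range apart from its neighbours on both sides. Sox6, which holds OPCs in the precursor state, was at 85.4, 87.7 and 57.6 TPM. Etv4, an Ets factor induced by growth factor signalling, was at 52.8, 69.2 and 61.2 TPM. Sox6 and Etv4 overlapped in range. Nkx2-2, a homeodomain factor of the ventral neural tube, was at 42.7, 47.1 and 38.1 TPM. Sox10, which marks all stages of the lineage, was at 45.1, 19.6 and 61 TPM, so that the library with the highest value had about 3 times that of the lowest. Myrf, the regulator of myelin genes, stayed below the threshold at 0.98, 0.267 and 0.685 TPM.

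Partners and inhibitors of these bHLH factors were expressed in 12 of 13 cases. The E proteins, which pair with Olig factors, were led by Tcf12 at 304, 245 and 162 TPM and Tcf4 at 105, 118 and 138 TPM. Their antagonists Id3 and Id2 were at 119, 128 and 207 TPM and 141, 133 and 127 TPM. Hes5, a Notch target that restrains differentiation, was at 125, 135 and 184 TPM, within the range of Id3. E proteins and their antagonists were thus measured at overlapping levels.

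In the list of thyroid hormone, retinoid and related receptors 5 of 18 were expressed, or 27.8%, against 47.0% of all protein-coding symbols. By family name, nuclear receptors, which act as transcription factors, reached 19 of 47, or 40.4%. Thra, the main thyroid hormone receptor of brain cells, was at 46, 11.5 and 20.1 TPM, and Thrb at 0.63, 0.497 and 0.814 TPM. Nr1h2, an oxysterol receptor, was at 14.5, 28.2 and 20.0 TPM and Nr3c1, the glucocorticoid receptor, at 21.2, 15.5 and 18.6 TPM. Rxrb and Rara, the remaining expressed members of the list, had means of 12.2 and 4.55 TPM. Rxrg, a retinoid X receptor linked to maturation, was listed at 0, 0 and 0.165 TPM and Vdr, the vitamin D receptor, at 0 in each library.

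Growth-linked factors were widely expressed, 15 of 17 in the Myc and E2F list. Tfdp1, the partner of E2F factors, was at 175, 149 and 136 TPM and Myc at 72.2, 65.1 and 82.3 TPM, followed by Max at 57.7, 42.7 and 44.2 TPM. Myc and its partner Max did not overlap in range, with Myc higher. E2f6 and Mycl had means of 47.2 and 34.4 TPM. Of the cyclic AMP and AP-1 factors 12 of 18 were expressed, led by Atf4, the factor of the integrated stress response, at 132, 176 and 219.8 TPM. Jund followed at 93.5, 146 and 164 TPM and Jun at 34.6, 32 and 38.4 TPM. Jund lay above Jun in every library. Atf2 and Nr4a1 had means of 33.2 and 15 TPM.

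By family name, 151 of 377 transcription factor genes outside the Zfp family were expressed, or 40.1%, against 47.0% of all protein-coding symbols. Zfp genes reached 303 of 400, or 75.75%. Sox genes reached 13 of 19, led by Sox4, a factor of immature neural cells, at 209.6, 309.7 and 292 TPM. All 4 Nfi genes, all 4 Id genes and 7 of 8 E2f genes were expressed. The Dlx, Gata and Runx families had 0 of 6, 0 of 6 and 0 of 3 members expressed, and Nkx genes 3 of 12. Klf and Sp genes reached 16 of 26, Ets genes 11 of 26 and Fox genes 13 of 42. The leading members were Nfix at 72.1, 53.6 and 76.9 TPM, Etv1 at 112, 80.5 and 91.5 TPM and Foxk2 at 67, 55.4 and 45.8 TPM. Foxm1, which drives mitotic genes, was at 34.6, 18.1 and 14.7 TPM. Tead2, a partner of the Hippo pathway's coactivators, was at 131, 37.1 and 26.1 TPM, with library 1 far above the others.

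Hox genes record position along the body axis, with low paralog numbers towards the hindbrain and high numbers towards the tail. Of 38 Hox genes 9 were expressed, or 23.7%, against 47.0% of all protein-coding symbols. Of 22 Hox genes of groups 1 to 8, 9 were expressed, and of 16 genes of groups 9 to 13, 0 were. The share in groups 1 to 8 was itself not above the 47.0%. Hoxa5 was the highest at 38.6, 27.3 and 28.9 TPM, above every other Hox gene in each library. Hoxb2 followed at 10.9, 13 and 9.07 TPM, then Hoxd8 at 20.4, 2.01 and 7.42 TPM, and these 2 overlapped in range. Hoxb8 was at 12.6, 3.68 and 6.42 TPM. Hoxb3, Hoxa3, Hoxb4 and Hoxa4 had means of 8.04, 7.04, 4.79 and 3.85 TPM. The highest single value in groups 9 to 13 was 1.23 TPM, for Hoxd9 in library 1. Hoxa7 and Hoxa6, below the threshold by the rule, were at 9.61, 0.462 and 0.774 TPM and 6.13, 0.419 and 0.513 TPM, high in library 1 only. No Hoxc gene was expressed, and the highest was Hoxc8 at 0.150 TPM in library 1.

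Receptors were read first against the factors in the growth medium. Ntrk3, the receptor for NT3, was at 20.1, 30.4 and 15.6 TPM, and Ntrk2, the BDNF receptor that also binds NT3, was higher at 66, 53.4 and 43.8 TPM. Their ranges did not overlap. Ngfr, the low-affinity neurotrophin receptor, was at 0.323, 0.194 and 0.386 TPM. Igf1r, the IGF-1 receptor, was at 10.5, 15.6 and 8.3 TPM and Insr, the insulin receptor, at 9.57, 8.84 and 8.29 TPM. Igf2r was listed at 0 in all 3 libraries. Tfrc, which takes up transferrin, was at 19.5, 12.2 and 5.58 TPM. Receptors for the BMP ligands that noggin holds back were led by Bmpr2 at 17.1, 15.6 and 13.5 TPM and Acvr2a at 16.1, 13.4 and 13.6 TPM. Acvr2b, Bmpr1a and Acvr1 had means of 5.91, 5.37 and 4.91 TPM, and Bmpr1b, at 3.79, 2.39 and 0.928 TPM, missed the threshold in library 3. The list, which also holds Thra, Thrb and Pgr, had 11 of 17 members expressed; Pgr, the progesterone receptor, was at 0.0348, 0.0508 and 0.0208 TPM.

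Of 54 receptor tyrosine kinases 24 were expressed, a share of 44.4% that is near the background. Ddr1, a collagen receptor, was at 81.8, 73.2 and 72.1 TPM, Ryk, a Wnt receptor, at 72.1, 55.9 and 58.4 TPM and Fgfr1 at 53.2, 62.3 and 55.9 TPM. Ddr1 lay above Fgfr1 in each library, and Ryk overlapped with Fgfr1. Fgfr3 was at 94.2, 18.5 and 37.4 TPM, a spread of about 5 times between libraries. Pdgfra lay below Fgfr1 in each library. Kit, the stem cell factor receptor, was at 29, 25.9 and 24.1 TPM, its highest value just under the lowest of Pdgfra.

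Notch, Wnt and hedgehog receptors were expressed in 18 of 22 cases. Smo, the signalling arm of the hedgehog receptor, had a narrow range at 54, 52 and 53.5 TPM. Notch1 was at 62.1, 36 and 44.8 TPM. Gas1, a hedgehog co-receptor, was at 16.7, 74.6 and 49.9 TPM, and Ptch1, the hedgehog receptor and target, at 34.8, 21.8 and 20.2 TPM. Fzd2, a Wnt receptor, was at 23.5, 21.8 and 30.1 TPM. Among 12 TGF-beta and BMP receptors, 6 were expressed, or 50%, near the 47.0% of all protein-coding symbols. Tgfbr2 was at 1.38, 1.2 and 2.32 TPM and its partner Tgfbr1 at 0, 0.292 and 0.229 TPM.

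G protein-coupled receptors of the list were expressed in 22 of 41 cases, or 53.7%, near the 47.0% of all protein-coding symbols. Adgrg1, an adhesion receptor that keeps OPCs dividing, was the highest gene of the receptor lists at 342, 274 and 262 TPM, above Gpr17 in every library. Adgrl3 and Adgrb1, also adhesion receptors, were at 70.9, 47.8 and 42 TPM and 39.9, 51.7 and 36.2 TPM. Gprc5b and the adenosine receptor Adora1 had means of 41.9 and 40.4 TPM. Glutamate and GABA channels were expressed in 13 of 30 cases, or 43.3%, also near the 47.0%. Grik5, a kainate receptor subunit, was at 35.1, 45.2 and 42 TPM and Gria2, the AMPA subunit that limits calcium entry, at 31.1, 37.1 and 23 TPM. Gabrg1, a GABA-A subunit, was at 24.9, 22.8 and 16.2 TPM, and Grik3 and Gabra2 had means of 19.3 and 14 TPM.

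The lists of adhesion and guidance receptors differed in share, with 47.0% of all protein-coding symbols as background. Integrins and laminin receptors reached 8 of 23, or 34.8%. They were led by Dag1 at 125, 98.4 and 120.2 TPM and Itga6 at 131, 85.8 and 93.8 TPM, which both bind laminin. Itgb1, the partner chain of Itga6, was at 3.64, 2.65 and 2.18 TPM, more than an order of magnitude below it. Itgb8 and Itgav, which pair with each other, were at 26.3, 27.2 and 27.6 TPM and 7.34, 21 and 25 TPM. Guidance and lipoprotein receptors reached 20 of 26, or 76.9%, with Plxnb2, a semaphorin receptor, at 129, 113 and 107 TPM. Scarb1, which takes up lipoprotein lipids, was at 64.3, 49.2 and 65.6 TPM. Plxna1 and Sort1 had means of 38.9 and 27 TPM. Lingo1, a brake on differentiation, was at 12.5, 17.2 and 16.6 TPM. Cytokine receptors reached 10 of 21, or 47.6%, near the background. Tnfrsf21, a death receptor, was at 49.8, 47.4 and 58.3 TPM and Cntfr, the receptor chain for CNTF, at 17.3, 18.3 and 19.1 TPM. Tnfrsf12a, Ifnar2 and Ifngr2 had means of 22.5, 14.9 and 11.4 TPM. Lifr and Il6st, its partner chains, had means of 9.32 and 7.87 TPM.

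Lineage markers were read from the precursor stage onwards. OPC markers were expressed in 23 of 26 cases. Ptprz1, a receptor phosphatase of precursors, was at 397, 348 and 266 TPM, and Cspg5, Cntn1 and Ncan, matrix and adhesion molecules, had means of 133, 128 and 110.0 TPM. Cspg4, the NG2 proteoglycan by which OPCs are often sorted, was at 23.7, 27.2 and 44.1 TPM. Markers of committed and newly formed oligodendrocytes reached 11 of 17. Fyn, a kinase of the first steps of differentiation, was at 342, 299 and 308 TPM, Sirt2 at 90.5, 85.8 and 90.1 TPM and Bcas1 at 27.3, 17.9 and 45.9 TPM. Rnf122 had a mean of 50.2 TPM. Enpp6, a marker of newly formed oligodendrocytes, was listed at 0 in each library.

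Myelin and mature oligodendrocyte genes were expressed in 9 of 28 cases. The highest were Cd9 at 111, 88.8 and 150.2 TPM, Cryab at 70.4, 44.6 and 71.1 TPM and Gjc3 at 32.3, 33.2 and 59.2 TPM, a tetraspanin, a small heat shock protein and a connexin. Mbp, a gene of compact myelin, was low at 5.43, 0.899 and 1.96 TPM. Mog was listed at 0 in all 3, Mag at 0.063, 0 and 0 TPM and Mobp at 0.503, 0 and 0.226 TPM. Car2 and Gamt, with means of 39.5 and 38.4 TPM, are enzymes and not structural myelin proteins.

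Neural stem cell and radial glia markers were expressed in 16 of 18 cases. Vim, an intermediate filament of immature cells, was at 1827, 1766 and 1503 TPM, above Olig1 in each library. Sox2 and Sox3, factors of neural progenitors, were at 96.7, 192 and 211 TPM and 96.4, 196 and 202 TPM. These were close to equal and were lowest in library 1. Sox9, shared by radial glia and astrocytes, was at 73.5, 126 and 84.7 TPM. Nes, the filament nestin, was at 0.933, 4.12 and 8.58 TPM and missed the threshold in library 1.

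Markers of other cell types were unevenly present. Astrocyte markers were expressed in 10 of 15 cases, with a summed level of 423 to 467 TPM, but of the defining ones Gfap, Aqp4 and Aldh1l1 were below the threshold. Gfap was at 1.34, 0.519 and 0.37 TPM, Aqp4 at 0.965, 0.813 and 0.206 TPM and Aldh1l1 at 0.817, 0.656 and 0.0829 TPM. Gja1, a connexin, was at 39, 13.2 and 1.6 TPM, highest in library 1 and lowest in library 3. The list's level came mainly from Aldoc at 162, 217 and 224 TPM, Sox9 and Fgfr3, and S100b was at 27.6, 5.94 and 34.4 TPM. Fgfr3 also stands in the receptor list and Sox9 in the stem cell list. Acsbg1, a fatty acid activating enzyme, was at 8.81, 21 and 3.76 TPM. The ion pump subunit Atp1b2 had a mean of 19.5 TPM, and the transporters Slc1a3, Slc1a2 and Slc39a12 means of 9.78, 7.38 and 6.32 TPM. The part of astrocytes in these values was not tested.

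Neuronal markers were expressed in 10 of 22 cases, or 45.5%, near the 47.0% of all protein-coding symbols. The list had a summed level of 471 to 516 TPM, most of it from Map2. Map2, a microtubule protein that OPCs also make, was at 416, 431 and 388 TPM. Tubb3, Dcx and Syn1 had means of 27.5, 12 and 10.5 TPM, and Rbfox3 was at 4.99, 5.56 and 5.22 TPM. The synaptic markers Snap25 and Syt1 were below the threshold at 1.33, 0.852 and 1.27 TPM and 1.87, 0.128 and 0.725 TPM, and Stmn2 at 0.19, 0.0685 and 0.0653 TPM. Elavl4 and Elavl3, RNA-binding proteins of neurons, had means of 8.04 and 6.03 TPM.

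Microglial markers were expressed in 1 of 15 cases, and the list summed to 9.25 to 21 TPM. Aif1 was at 0, 0.252 and 0 TPM, Csf1r at 0, 0.0151 and 0 TPM and Ptprc at 0.0336, 0 and 0 TPM, with Cx3cr1 listed at 0 throughout. Pluripotency markers were expressed in 3 of 17 cases. Klf4 was at 20.7, 1.56 and 27.5 TPM, Esrrb at 2.89, 4.18 and 5.19 TPM and Klf2 at 1.15, 1.88 and 2.81 TPM. Of the defining ones, Pou5f1 was at 7.83, 0 and 0 TPM, Nanog at 0.915, 0.793 and 0.305 TPM and Zfp42 at 0 in each library. The Pou5f1 value in library 1 stands against 0 in the others.

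Mesenchymal and pericyte markers were expressed in 4 of 16 cases, all contractile genes or Twist1. Myl9 was at 69.2, 28.1 and 60.2 TPM, Acta2 at 32.9, 35.5 and 50.5 TPM, Tagln at 9.89, 8.34 and 19.5 TPM and Twist1 at 6.21, 4.93 and 4.37 TPM. Col3a1 and Pdgfrb were listed at 0 throughout, and Col1a1 at 0.112, 0.0867 and 0.112 TPM. Schwann cell and neural crest markers were expressed in 5 of 14 cases, among them genes shared with oligodendrocytes or growing axons: Gap43 at 185, 409.7 and 206 TPM, Pmp22 at 68.1, 84.3 and 67.3 TPM and Sox10. Prx was at 1.52, 1.78 and 2.14 TPM. No endothelial marker of 11 and no endoderm, mesoderm or epithelial marker of 15 was expressed. Pecam1 was at 0.18, 0.124 and 0.202 TPM and Cdh5 at 0.118, 0 and 0 TPM. Sox17 was listed at 0 throughout, with Gata6, Epcam and Cdh1 at or below 0.393 TPM.

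Metabolic genes were among the highest of the lists. Ckb, the brain creatine kinase that buffers ATP, was at 7109, 6150.1 and 6419 TPM, a mean of 6559 ± 495 (SD, n = 3), the highest nuclear gene of any list. Gatm and Gamt, the enzymes of creatine synthesis, had means of 102 and 38.4 TPM. Got2 had a mean of 168 TPM, and Slc38a2, a glutamine carrier, was at 96.7, 93.2 and 90.1 TPM. Glul, glutamine synthetase, was at 52.9, 14.5 and 0.197 TPM, with library 3 near 0.

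Cholesterol synthesis was expressed in 22 of 23 members. Hmgcs1, whose promoter is shown above, was at 1033, 789 and 729.6 TPM, followed by Idi1 at 502, 296 and 297 TPM and Cyp51 at 271, 215 and 233 TPM. Srebf2, the factor that controls the pathway, was at 213, 204 and 197 TPM. Sqle, the squalene epoxidase, was lower at 7.42, 6.89 and 4.67 TPM. Msmo1 was at 198, 15.1 and 12.8 TPM, with library 1 far above the others. Fatty acid and sphingolipid synthesis was expressed in 17 of 21 members, led by the desaturase Scd2 at 982, 775 and 868 TPM. Fads2 was at 373, 240.4 and 212 TPM and Fasn at 219, 236 and 194 TPM, with means of 144 and 138 TPM for Fads1 and Scd1. Scd2 lay above Scd1 in each library. Elovl5, an elongase, was listed at 44.3, 0 and 0.42 TPM.

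All 26 genes of pyruvate entry and the citric acid cycle were expressed. Cs, citrate synthase, was at 313, 274 and 246 TPM, and Sdha, Sdhb and Sdhc had means of 253, 252 and 236 TPM. Library 1 was the highest in 22 of the 26, against 61.1% of all expressed genes. Glycolysis reached 17 of 24, led by Gapdh, Pgam1 at 559.6, 454 and 450.4 TPM and Gpi1 at 293, 208 and 224 TPM; Tpi1 had a mean of 167 TPM. Pkm was at 309.6, 50.4 and 70.2 TPM. Hk2 was listed at 0 throughout and Hk1 at 5.86, 0 and 3.38 TPM, so neither of these hexokinase genes passed. The pentose phosphate pathway reached 8 of 9, with Tkt at 289.8, 250.1 and 220.4 TPM and Taldo1 at 238, 215 and 222 TPM. Pgd, Prps1 and Rpe had means of 107, 60.4 and 37.5 TPM. Fatty acid oxidation and ketone use reached 15 of 19, led by Oxct1, which activates ketone bodies, at 185, 132 and 134 TPM. Etfb, Acadl, Etfa and Acat1 had means of 112, 108, 84.8 and 71.7 TPM.

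Mitochondrially encoded genes took 10 of the 20 highest ranks among expressed symbols. mt-Atp8 was the highest symbol at 16468, 65391 and 57113 TPM, and mt-Nd4l and mt-Co1 followed with means of 17748 and 15008 TPM. mt-Cytb, mt-Co3, mt-Nd1, mt-Nd2 and mt-Nd4 had means of 9482, 9338, 7485, 4268 and 4258 TPM. mt-Atp6 was at 1956, 15593 and 18334 TPM and mt-Co2 at 8872, 2853 and 3483 TPM. Gm28661, a nuclear copy whose transcript matches mt-Co2 over its length, was at 49.0, 18105 and 17632 TPM, and the sum of mt-Co2 and its copies was 8921, 20959 and 21115 TPM. Reads of mt-Co2 and its copy cannot be told apart in such values, so the level of either alone is uncertain. The same holds for mt-Atp6 and Gm10925 and for mt-Co1 and Gm29216. The sum of mt-Atp6 and its copy was 11648.5, 22450.5 and 20578.9 TPM. Of 49 nuclear genes of the respiratory chain 46 were expressed, led by Atp5b at 3535, 3922 and 3641 TPM and Cox8a at 1458, 1481 and 1611 TPM. Cox6a1, Cox7c and Ndufa4 had means of 1494, 1228 and 1029 TPM. Besides these copies and Ckb, the 20 highest held Rps27rt, a retrogene of a ribosomal protein gene, with a mean of 7022 TPM, and 5 ribosomal protein genes, Rplp1, Rpl41, Rps24, Rpl23a and Rps12, with means of 6519, 4636, 4377, 4360.4 and 4334 TPM.

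Serine, glycine and folate genes were expressed in 12 of 15 cases. Psat1 was at 600.4, 413 and 391 TPM and Mat2a, which makes the methyl donor, at 191, 129.8 and 153 TPM. Shmt2, Mthfd1 and Tyms had means of 141, 66.7 and 52.2 TPM. Phgdh, the first enzyme of serine synthesis, was listed at 40.5, 0.253 and 0 TPM, although Psat1, the next enzyme, was high in each library. Ferritin, iron and redox genes reached 21 of 24. Fth1, the heavy ferritin chain, was at 1607, 1125 and 1416 TPM and Ftl1, the light chain, at 680.3, 38.7 and 32.9 TPM. Prdx1 was at 834, 568 and 561 TPM and Txn1 at 604, 477 and 481 TPM, and Prdx2 had a mean of 308 TPM. Gpx4, which guards lipids against peroxidation, was at 265, 237 and 273 TPM.

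Proliferation genes had the highest share of any class. In G2 and mitosis 34 of 35 were expressed and in DNA replication 28 of 31. Cdk1 was at 304, 294 and 296 TPM, a mean of 298 ± 5.08 (SD, n = 3), a narrow range. Top2a, which untangles chromosomes, was at 303, 203 and 198 TPM, Cenpa, the centromere histone, at 137, 151 and 116 TPM and Ccna2 at 161, 113 and 108 TPM. Prc1 had a mean of 121 TPM. Mki67, the usual marker of cycling cells, was at 87.7, 68.3 and 60.9 TPM. Library 1 was the highest in 29 of the 34, against 61.1% of all expressed genes, and its mitochondrial share was the lowest; the part of that share was not tested. Ccnb2, with the same promoter letters as Cdk1, was lower at 25.5, 7.78 and 4.96 TPM. Pcna, the clamp of the replication fork, was at 331, 288 and 299 TPM and Rrm1 at 170.4, 115 and 118 TPM. Rpa1, Mcm2 and Mcm5 had means of 117, 60.2 and 59.0 TPM.

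RNA of genes that drive entry into the cycle and of genes that restrain it was measured side by side. All 12 G1 cyclins and kinases were expressed. Cdk4 was at 588, 365 and 180.0 TPM, so that library 1 had about 3 times library 3, and its partner Ccnd1 at 201, 272 and 268 TPM. Ccnd3, Ccnh and Cdk7 had means of 85.1, 50.3 and 32.9 TPM. All 19 inhibitors and brakes were expressed too. Cdkn1a, a target of p53, was at 308, 222 and 156 TPM, Ccng1, another such target, at 191, 236 and 119 TPM and Btg2 at 150.3, 115 and 132 TPM. Cdkn2a, the locus of p16 and p19Arf, was at 55.9, 136 and 214 TPM, lowest in library 1 and highest in library 3. Gadd45g had a mean of 98.3 TPM, Trp53 itself was at 71.5, 69.7 and 73.5 TPM, and Cdkn1b, which rises as OPCs leave the cycle, at 16.3, 40.2 and 38.9 TPM.

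The members with the widest spread were looked at by library. Among members of the lists whose mean reached 10 TPM, mt-Nd3, Elovl5 and Phgdh were listed at 0 in a library. Glul, Prdx5, Mdh1, Gja1 and Ftl1 followed, with the highest value 269, 177, 28.5, 24.5 and 20.7 times the lowest. Library 1 was the highest for all 5, against 61.1% of all expressed genes. These members were picked by their spread, so the count says nothing further about library 1. Prdx5, a mitochondrial peroxidase, was at 71.9, 15.4 and 0.406 TPM and Mdh1, a malate dehydrogenase, at 88.4, 50.4 and 3.11 TPM.

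**Figure D4:**
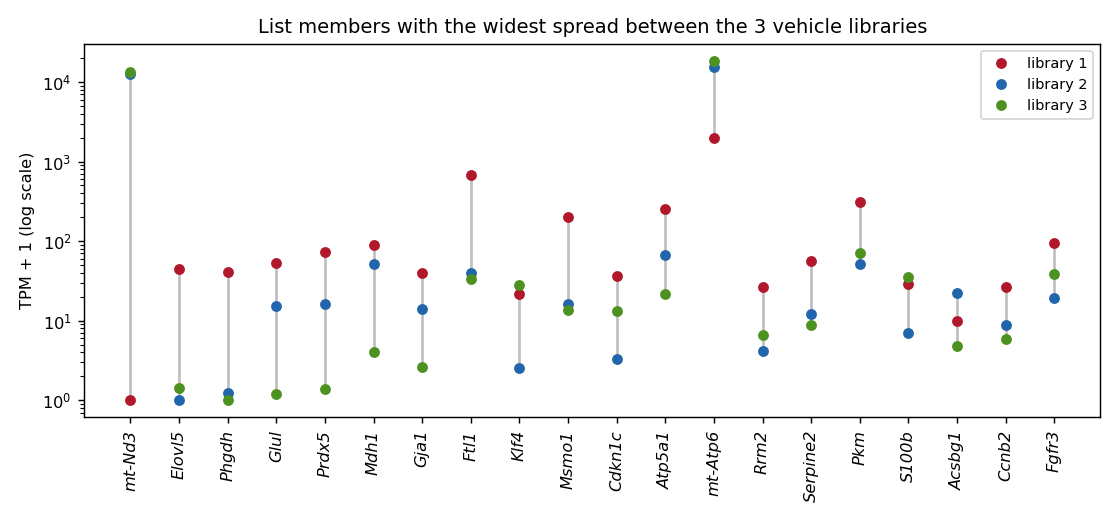
Level (TPM + 1, log scale) in each vehicle library of the 20 list members whose mean reached 10 TPM and whose spread was widest, with the line joining lowest and highest. Library 1 is at an end for most. There mt-Nd3 and mt-Atp6 are low and most others high, as listed without matched pseudogene copies.

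Because all groups carry libraries numbered 1 to 3, the genes that set a vehicle library apart were looked up in the 9 treated libraries by number, a step chosen after the values were seen; treated and vehicle levels were not compared. In vehicle library 1, 234 genes were at least 4 times higher than in both others on TPM + 1. Of these 11, or 4.70%, were also higher in all 3 treated libraries numbered 1 than in the other 6 treated libraries, against 4.26% of all 11632 genes whose mean reached 1 TPM. Most of what set vehicle library 1 apart was thus not shared by the other libraries of that number. The 11 held Dbx2, Hoxa6 and Hoxa7 among others. As their share was near that of all genes, no theme is read from them. In vehicle library 2, 33 genes were at least 4 times lower, and 11 of them, or 33.3%, were also lower in the treated libraries numbered 2, against 12.1% of all genes. Y-linked genes stood among them: Eif2s3y was at 55.8, 0 and 45.2 TPM in the vehicle libraries, at 0 in every treated library numbered 2 and at 34.5 to 46.5 TPM in the other treated libraries. Kdm5d was at 16.3, 0.269 and 12.5 TPM and Uty at 13.8, 0.235 and 6.39 TPM in the vehicle libraries. Otx2, a forebrain and midbrain factor, was at 0.294, 7.83 and 0.0941 TPM in the vehicle libraries, and at 5.18 to 6.23 TPM in the treated libraries numbered 2 against at most 0.0787 TPM in the others. Gja1 in the treated libraries was at 34.1 to 37.0 TPM in number 1, 12 to 14.7 in number 2 and 1.54 to 2.14 in number 3, the order seen in the vehicle libraries. For the other sets, 1 of 37 genes lower in vehicle library 1 recurred (2.7%, against 3.77% of all genes), 4 of 32 higher in library 2 (12.5%, against 3.69%), 1 of 40 higher in library 3 (2.5%, against 6.22%) and 1 of 43 lower in library 3 (2.33%, against 2.21%). The 4 held Otx2 and Zic1, and the last was Gja1. Eif2s3y was thus listed at 0 in the library numbered 2 of all 4 groups and at 34.5 TPM or more in every other library. Gja1 kept 1 order by number in all 4 groups, and so did Cdkn2a and Gap43, picked after the values were seen. In numbers 1, 2 and 3, treated Cdkn2a values were 59.1 to 76.5, 142 to 159 and 178 to 209 TPM. Those of Gap43 were 179 to 194, 402 to 410 and 213 to 218 TPM. The treated ranges of Phgdh, mt-Nd3 and Hspa8, looked up in the same way, overlapped between numbers. The labels do not say what a number stands for.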

How the data were processed

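The labels state total RNA and 150 base paired reads; strand is not stated. The authors deposited 1 table per library of TPM per gene symbol, and per the submitters' processing notes Salmon and mm10 were used (the Salmon version: not given in the sources used here). TPM keep no depth, so the depth is unknown. The 3 vehicle libraries were grouped by their treatment label. No test was made. Some list members are not reported here. A gene counted as expressed at 1 TPM or more in all 3. Lists, families, markers and the rule for named genes (the 5 markers, the highest symbols, the top members of each list and family, defining markers of other cells, the widest and the nearest to the threshold) were chosen with earlier results of these data known. Symbols were matched to GENCODE M21 (34858 of 35385), and pseudogene copies by BLAST 2.17.0 at 95% identity over 50% of the copy. Promoters came from RefSeq, GRCm38.p6: 16830 symbols matched and 14122 had 1 window of 300 bases. Treated libraries were read only for the comparison by number. Alternatives are given in the closing section. Python 3.11.15 and pandas 2.3.3 were used.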

Additional observations from a re-analysis of the deposited data

How the results depend on the processing

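No paired analysis was possible because the results come from no test. The 10410 expressed genes became 11243, 9371 and 7605 at 0.5, 2 and 5 TPM, 11301 in at least 2 of the 3 libraries, 11632 by the mean, 10714 after rescaling each library to the full TPM sum and 10943 after rescaling without mitochondrially encoded genes. Leaving out 1 library gave 10643 to 10767. None of the 76 alternative counts over genes and classes moved by over 1.5 times; the 553 expressed list members ranged from 444 to 608, and adding matched pseudogenes, chosen after the values were seen, gave 554. The mean correlation of 0.949 ranged from 0.943 to 0.959. Levels followed the scaling: rescaling without mitochondrially encoded genes took Olig1 from 1194 to 1873 TPM and Pdgfra from 31.4 to 49.1 TPM. Of 96 alternative means 28 moved by over 1 SD, each under a rescaling. The number of libraries and the unknown depth limit low values.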

Other observations

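Some further gene groups were drawn up after the values had been seen. Imprinted genes, which are read from 1 parental copy, were expressed in 11 of 20 cases, or 55%, against 47.0% of all protein-coding symbols. Nnat, a membrane protein of developing brain, was at 328, 1573 and 983 TPM in libraries 1, 2 and 3, and Mest at 487, 339 and 399 TPM. Peg10 and Nap1l5 were at 194, 121 and 69.8 TPM and 81.5, 155 and 74.8 TPM. Igf2r was listed at 0 in each library, and Dlk1 was at 15.7, 0.162 and 3.18 TPM.

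Regional factors other than Hox genes were expressed in 9 of 25 cases, or 36%, against the same 47.0%. Irx1 and Irx2, factors of the hindbrain and other regions, were at 38.5, 71.3 and 51.8 TPM and 21.2, 21.6 and 18.5 TPM. En2 and Gbx2, of the midbrain and hindbrain boundary, were at 2.64, 9.41 and 7.16 TPM and 3.33, 8.55 and 5.9 TPM. Nkx2-1 was listed at 0 throughout. Emx2 was at 0.7, 4.86 and 6.29 TPM and Zic1 at 0.0576, 4.34 and 0 TPM. Lhx2, a factor of the forebrain and eye, was expressed at 17.8, 9.47 and 18 TPM.

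Ligands were expressed in 29 of 62 cases, or 46.8%, near the 47.0% of all protein-coding symbols. Ptn, a growth factor that binds Ptprz1, was at 890.4, 865 and 939.6 TPM, far above every other ligand of the list. The Notch ligands Dll1 and Dll3 were at 65.6, 58.8 and 58.7 TPM and 38.7, 73.2 and 88.1 TPM. Wnt7a and Wnt7b, by which OPCs signal to vessels, were at 34.6, 40.6 and 22.7 TPM and 57.2, 31.8 and 46.3 TPM. Pdgfa, the ligand of Pdgfra, was at 6.22, 4.94 and 8.4 TPM and Nog, the gene for noggin, at 2.89, 1.83 and 3.49 TPM. Igfbp3, which binds IGF-1, was at 3.85, 28.1 and 91.2 TPM, lowest in library 1 and highest in library 3.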
